A study of Mus musculus with 48 samples.

Results

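Breakdown of the branched-chain amino acids leucine, isoleucine and valine was followed through 10 genes, taken by symbol from the gene table over all 16 groups of libraries: Bcat2, Bckdha, Bckdhb, Dbt, Dld, Bckdk, Ppm1k, Ivd, Mccc1 and Auh. All 10 were among the 30055 symbols of the table, and all 10 passed the filter on low counts in liver, where 15897 genes were tested, and in visceral fat, where 18325 were. The mice were C57BL6/J, fed ad libitum, and were given either standard rodent chow (regular diet, RD) or a diet with 45% of its calories from fat (high-fat diet, HFD) from 8 weeks of age. Males and females of 2 cohorts were taken after 2 or after 12 weeks on the diets. Each combination of tissue (liver or visceral white fat), diet, sex and weeks had 3 libraries, so there were 48 libraries, 24 per tissue. The strain is the only genotype in the labels, and the fat is labelled visceral without a named depot. Because each duration was its own cohort, weeks on the diet, age and cohort cannot be told apart. No label says whether a liver and a fat library with the same number came from the same mouse, and p-values measure the spread between libraries only.

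As background, the first step is a reversible transamination to branched-chain keto acids, carried out in most tissues outside the liver by the mitochondrial enzyme that Bcat2 encodes. The committed step is oxidative decarboxylation by the branched-chain keto acid dehydrogenase, a mitochondrial complex of a decarboxylase (alpha subunit Bckdha, beta subunit Bckdhb), a lipoylated transacylase core (Dbt) and a flavoprotein that sister complexes share (Dld). A kinase (Bckdk) phosphorylates the alpha subunit and switches the complex off, and a phosphatase (Ppm1k) reverses this. Ivd, Mccc1 (the biotin-carrying subunit of a carboxylase) and Auh (a hydratase) act on the leucine branch downstream of the complex. Liver is known for strong keto acid oxidation with little transamination, while fat cells can carry out both.

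Library totals ran from 50888675 to 80062332 expected counts in liver and from 44698220 to 105409435 in fat. Even the smallest value of a member, Bcat2 in 1 liver library, rested on 111 expected counts, and the other members had at least 312.8 in each liver library and 494.4 in each fat library. Summed levels of 9 measured hepatocyte markers were 68700 to 135464 CPM (counts scaled to the effective library size) in liver and 39.7 to 1284 in fat, and those of 12 adipocyte markers were 684 to 1814 CPM in liver and 11889 to 43748 in fat. In fat, HFD female 1 at 2 weeks stood apart, with an adipocyte sum of 11889 CPM against 26190 to 43748 in the other 23 libraries and an epithelium sum (6 markers) of 1428 CPM against at most 534. Epididymis markers (7 genes) summed to 8419 and 2691 CPM in RD males 6 and 8 at 2 weeks and to 7827 in HFD male 13 at 2 weeks. At 12 weeks these sums were 3534, 3594 and 5468 CPM in RD males and 7.74, 2.95 and 1.76 in HFD males, and diet and epididymis transcripts cannot be told apart there. Macrophage markers (11 genes) summed to 3780 to 5771 CPM in those HFD males and 922 to 1161 in the RD males, to 1351 to 1515 in HFD and 1015 to 1196 in RD males at 2 weeks, and overlapped by diet in females. Fibroblast and progenitor markers (6 genes) were higher on HFD without overlap in 2-week females (4827 to 5391 against 3621 to 4469 CPM) and 12-week males (3611 to 4339 against 1562 to 3041). In bulk tissue, fewer cells of a type and less RNA per cell cannot be told apart.

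The clearest difference among the 10 genes was between the tissues. Fat held far more transcript of the transaminase, and liver held far more of the phosphatase. The kinase was higher in fat and the core subunit higher in liver, by smaller folds. Levels here are CPM with all 48 libraries scaled together, as mean ± SD over n = 24 libraries, and calls are those of edgeR's quasi-likelihood test with Benjamini-Hochberg adjustment over all genes, at an adjusted p under 0.05. The mean liver over fat contrast of the 8 group pairs called 80.4% of the 18800 genes tested, so a call alone says little about a gene in this contrast. All 10 members were called, 6 higher in liver and 4 higher in fat, and what follows describes sizes and overlap. The share of all genes without overlap between the tissues was not computed, so a lack of overlap does not set a member apart.

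**Figure D1:**
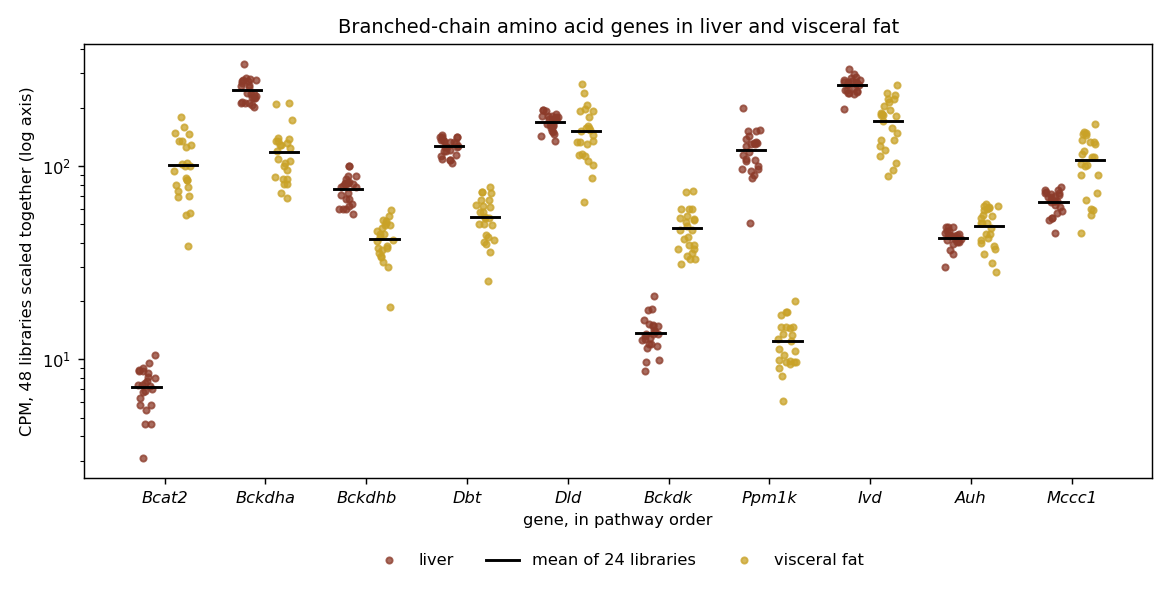
CPM of each of the 10 genes (log axis, 48 libraries scaled together) in 24 liver and 24 visceral fat libraries, with 1 point per library and a bar at the mean. Bcat2 and Bckdk lie higher in fat and Ppm1k and Dbt higher in liver with no overlap of libraries, while the points of Dld and Auh overlap widely.

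Bcat2 (chr7:45570153-45589711, plus strand, GRCm38) was at 7.24 ± 1.73 CPM in liver, from 3.09 to 10.6, and at 101 ± 35.8 CPM in fat, from 38.6 to 178. No liver library reached the lowest fat library. The fitted difference was 13.6-fold higher in fat (log2 -3.76 ± 0.12, adjusted p = 5.57e-26). Bckdk (chr7:127904082-127910221, plus strand) was at 13.7 ± 2.82 CPM in liver, from 8.70 to 21.2, and 47.4 ± 12.2 CPM in fat, from 30.9 to 74.4. It was 3.43-fold higher in fat, again without overlap (log2 -1.78 ± 0.06, adjusted p = 1.14e-24).

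Ppm1k (chr6:57506502-57535468, minus strand) went the other way, at 120.1 ± 29.8 CPM in liver, from 50.9 to 199, and 12.4 ± 3.45 CPM in fat, from 6.12 to 20.04. The phosphatase transcript was 9.79-fold higher in liver (log2 3.29 ± 0.10, adjusted p = 1.39e-26), and no fat library reached the lowest liver library. Dbt (chr3:116513070-116549981, plus strand), the transacylase core, was at 126 ± 12.7 CPM in liver and 54.7 ± 13.4 in fat, with 102.9 as the lowest liver value and 77.5 as the highest fat value. It was 2.32-fold higher in liver (log2 1.22 ± 0.08, adjusted p = 1.53e-16).

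The other subunits of the complex were higher in liver with overlapping libraries. Of 15 mitochondrial housekeeping genes 12 were called higher in liver and 2 lower, with a median log2 difference of 0.80. A higher level in liver thus does not set the subunits apart from other mitochondrial genes. Bckdha (chr7:25629946-25658981, minus strand) was at 246 ± 33.3 CPM in liver and 118 ± 38.0 in fat (log2 1.10 ± 0.07, adjusted p = 1.94e-16), and the highest fat value, 212 CPM, passed the lowest liver value, 201. Bckdhb (chr9:83925145-84124240, plus strand) was at 76.0 ± 12.2 CPM in liver and 42.1 ± 9.22 in fat (log2 0.85 ± 0.07, adjusted p = 3.52e-13). Dld (chr12:31331277-31351453, minus strand), whose protein also serves the pyruvate and 2-oxoglutarate dehydrogenases and the glycine cleavage system, was at 169 ± 16.7 and 151 ± 47.3 CPM (log2 0.20 ± 0.08, adjusted p = 0.0266). Its call was lost with median-of-ratios size factors (adjusted p = 0.105), with DESeq2 (0.0972) and with no filter on low counts (0.0587).

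Downstream, Ivd (chr2:118861954-118882909, plus strand), isovaleryl-CoA dehydrogenase, was at 262 ± 25.0 CPM in liver and 171 ± 48.4 in fat (log2 0.65 ± 0.08, adjusted p = 2.14e-09). Mccc1 (chr3:35959312-36000678, minus strand) was lower in liver, at 65.3 ± 8.38 CPM against 107.5 ± 34.3 (log2 -0.68 ± 0.09, adjusted p = 1.97e-08). Auh (chr13:52835119-52929681, minus strand) differed least, at 42.5 ± 4.19 and 48.9 ± 10.6 CPM (log2 -0.19 ± 0.07, adjusted p = 0.00844). The libraries of each of these 3 genes overlapped between the tissues.

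Levels of different genes were compared as CPM per kb of the longest annotated coding transcript. By that scale Bckdha ranked first of the 10 in both tissues, at 129.7 ± 17.5 CPM per kb in liver and 62.3 ± 20.04 in fat (SD, n = 24). Bcat2 ranked last in liver, at 3.48 ± 0.832 CPM per kb, and the third in fat, at 48.6 ± 17.2, close to Dld at 59.3 ± 18.6, Ivd at 46.6 ± 13.2 and Mccc1 at 43.8 ± 14.0, whose SDs overlap. Ppm1k ranked the seventh in liver, at 21.6 ± 5.36 CPM per kb, and last in fat, at 2.23 ± 0.621. In liver Ivd (71.5 ± 6.81) and Dld (66.5 ± 6.58) did not differ beyond their spread, nor did Bckdk (4.03 ± 0.827) and Bcat2 at the bottom. The choice of transcript length matters here: with median transcript lengths Bckdha remained first in both tissues, Bcat2 last in liver and Ppm1k last in fat, while Bckdk in liver was at 10.4 CPM per kb beside 4.30 for Bcat2.

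The kinase and the phosphatase act on the same protein, so their transcripts were set against each other in each library as a ratio of CPM per kb. In liver the ratio of Bckdk to Ppm1k ran from 0.111 to 0.329, with a median of 0.188 over 24 libraries. In fat it ran from 3.63 to 10.1, with a median of 6.13, and no fat library came near a liver library. Lengths multiply all ratios by 1 factor, and with median transcript lengths the ranges were 0.161 to 0.474 in liver and 5.23 to 14.6 in fat. By diet, the 3 HFD libraries were all below the 3 RD libraries in 2 of the 8 pairs of groups. These were females at 2 weeks in liver, at 0.189, 0.167 and 0.190 on RD and 0.152, 0.114 and 0.153 on HFD, and males at 2 weeks in fat, at 9.26, 5.64 and 6.76 on RD and 4.54, 5.14 and 4.82 on HFD. The other 6 pairs overlapped, such as 6.81 ± 2.37 in RD and 7.08 ± 1.79 in HFD males at 12 weeks in fat (SD, n = 3). The ratio by diet was not tested.

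**Figure D2:**
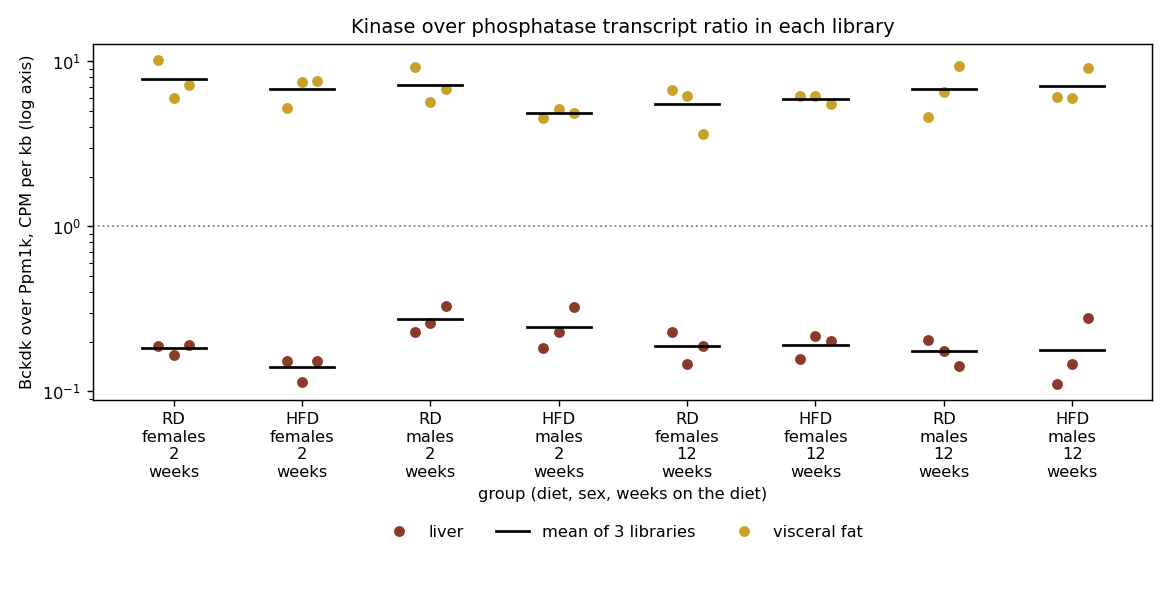
Ratio of Bckdk to Ppm1k transcript, each as CPM per kb of its longest coding transcript (log axis), in each library by tissue and group, with a bar at the mean of 3 libraries and a dotted line at equal levels. Liver libraries lie between 0.111 and 0.329 and fat libraries between 3.63 and 10.1 in all 8 groups.

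The substrate of this pair is the alpha subunit, and the stretch of Bckdha messenger RNA that encodes its regulatory phosphorylation loop is shown because both enzymes act there. It covers 19 codons (57 bases) across exons 7 and 8 of 9, within chr7:25631117-25631343 on the minus strand of GRCm38, an interval that includes the intron between them. The sequence is from the GENCODE M21 transcript. The capitals mark the codons of the 2 serines that the kinase phosphorylates and the phosphatase clears, 10 codons apart.
Bckdha: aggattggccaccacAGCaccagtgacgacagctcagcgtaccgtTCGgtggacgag
The libraries measure transcripts only, and phosphorylation at these codons was not measured.

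The 3 genes farthest apart between the tissues can be looked at from their promoter side. The sequences are RefSeq's, on GRCm38.p6, and run 300 bases, from 250 before to 50 after the annotated start. They belong to Bcat2 (the upstream of its 2 listed starts, chr7:45569903-45570202, plus strand), Bckdk (chr7:127903823-127904122, plus strand) and Ppm1k (chr6:57535438-57535737, minus strand), read 5′ to 3′ on the gene's strand. Their share of G and C was 54, 54 and 52.7%, beside a median of 52.7% over 32851 promoters, and they held 13, 14 and 16 CG dinucleotides beside a median of 7.
Bcat2: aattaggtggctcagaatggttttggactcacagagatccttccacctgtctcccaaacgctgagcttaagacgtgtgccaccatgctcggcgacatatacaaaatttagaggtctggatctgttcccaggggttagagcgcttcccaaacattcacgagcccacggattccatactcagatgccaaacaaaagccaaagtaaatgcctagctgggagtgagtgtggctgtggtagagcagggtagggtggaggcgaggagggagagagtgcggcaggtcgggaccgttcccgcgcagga
Bckdk: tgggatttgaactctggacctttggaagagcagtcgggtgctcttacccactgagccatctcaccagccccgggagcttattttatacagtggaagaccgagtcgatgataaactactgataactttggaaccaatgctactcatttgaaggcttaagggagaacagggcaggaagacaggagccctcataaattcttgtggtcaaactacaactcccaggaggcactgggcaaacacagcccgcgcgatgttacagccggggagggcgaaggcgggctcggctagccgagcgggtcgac
Ppm1k: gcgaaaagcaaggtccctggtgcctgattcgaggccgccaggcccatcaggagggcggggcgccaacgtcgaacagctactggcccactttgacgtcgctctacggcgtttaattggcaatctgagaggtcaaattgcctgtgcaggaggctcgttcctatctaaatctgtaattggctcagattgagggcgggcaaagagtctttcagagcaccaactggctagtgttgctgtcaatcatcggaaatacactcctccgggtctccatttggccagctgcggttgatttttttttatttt

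Of the 10 genes, 9 had a promoter in that table, with 11 starts in all. The exact letters of 4 motifs of factors tied to mitochondrial genes were searched on both strands: the estrogen-related receptor element (TCAAGGTCA, in 0.423% of the 32851 promoters), the DR1 element (AGGTCA repeated after 1 free base, in 0.04%), the NRF1 element (in 4.6%) and the E-box (CACGTG, in 7.15%). The only match was an NRF1 element in the Dld promoter (chr12:31351422-31351721, minus strand), in capitals below, beginning at base 290 of 300 and so past the annotated start. The match describes letters in this window and shows no binding.
Dld: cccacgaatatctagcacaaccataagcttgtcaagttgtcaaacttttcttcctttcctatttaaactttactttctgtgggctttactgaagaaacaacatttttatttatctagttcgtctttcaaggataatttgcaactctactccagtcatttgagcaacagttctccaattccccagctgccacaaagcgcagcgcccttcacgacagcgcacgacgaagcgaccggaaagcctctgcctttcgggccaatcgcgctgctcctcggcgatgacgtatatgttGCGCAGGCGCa

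In visceral fat the question was whether HFD changed these transcripts. From here on CPM are scaled within a tissue, so they differ from the levels above that were scaled over both tissues. In single comparisons of HFD with RD few passed the test. None of the 10 was called in females at 2 weeks (0.235% of all genes called), in males at 2 weeks (0.0%) or in females at 12 weeks (2.08%). In males at 12 weeks 2 of 10 were called, both lower, beside 28.2% of all genes called in either direction and 15.0% called lower. At an unadjusted p under 0.05 the counts were 5, 0, 3 and 5, beside 21.7, 11, 14.5 and 41.9% of all genes, and DESeq2 called 2 (Bckdha, adjusted p = 0.0345, and Bckdk, 0.0159), 0, 0 and 2. The fitted change lay below 0 for 10, 9, 10 and 10 of the 10 genes, with medians of -0.48, -0.23, -0.49 and -0.44 (log2) beside medians over all genes of 0.04, 0.03, -0.02 and -0.11.

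Because the 4 comparisons rest on separate libraries, their mean was also tested, a contrast added after the data had been seen. It called 5 of the 10 genes, all lower on HFD: Bcat2, Bckdha, Bckdk, Ivd and Ppm1k. Of all 18325 genes, 28.2% were called in it and 13.4% were called lower. The median log2 change was -0.40 over the 10 members and -0.01 over all genes. DESeq2 called 7, adding Dld (adjusted p = 0.0274) and Mccc1 (0.0363), and leaving out 1 library at a time gave 3 to 9.

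**Figure D3:**
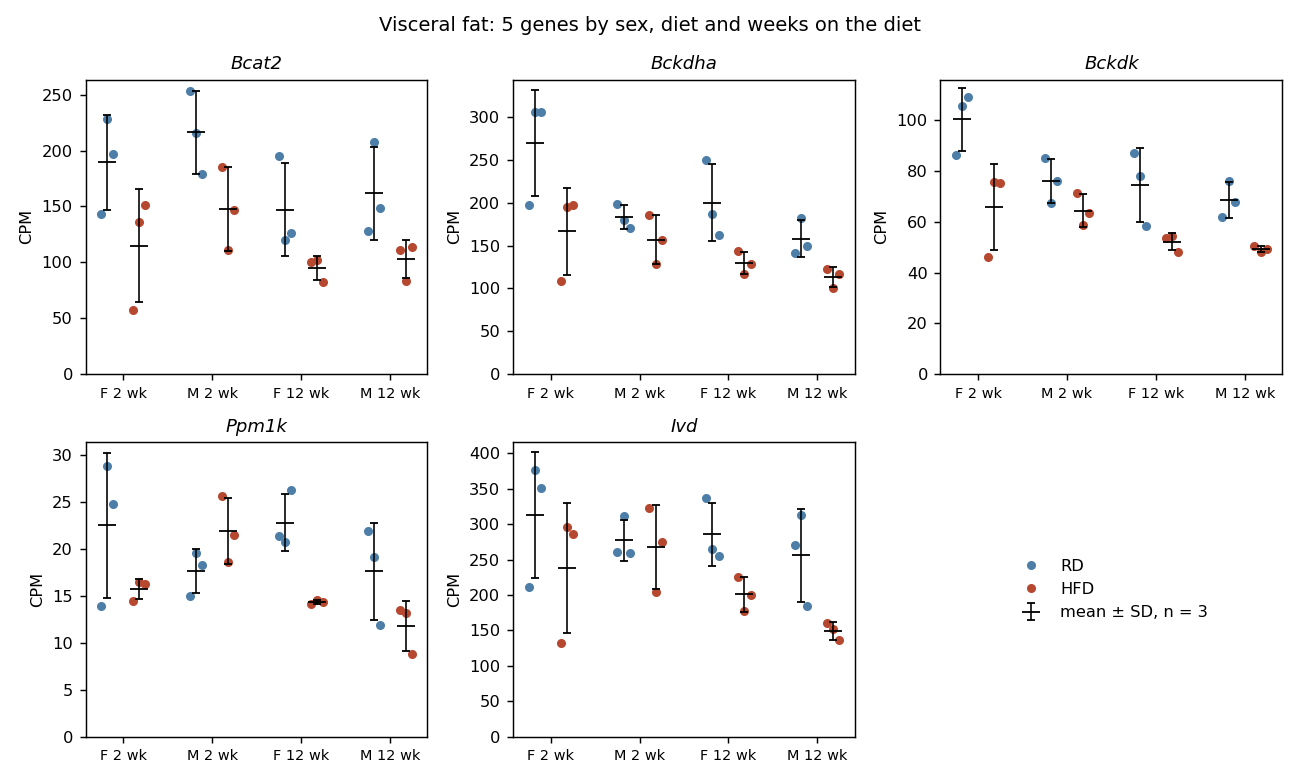
CPM in visceral fat of the 5 genes called in the mean of the 4 diet comparisons, by sex (F, M) and weeks on the diet, with 1 point per library and black bars for mean ± SD (n = 3). The HFD mean lies below the RD mean in every gene and comparison shown except Ppm1k in males at 2 weeks.

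Bcat2, the transaminase, had the largest mean change of the 10, log2 -0.64 ± 0.15, adjusted p = 0.0054. In females at 2 weeks it was at 143, 228 and 197 CPM on RD and 57.5, 136 and 151 on HFD. In males at 2 weeks it was at 254, 216 and 179 CPM on RD and 185, 111 and 147 on HFD. Libraries overlapped between the diets in both of these comparisons. In females at 12 weeks it was at 195, 120.4 and 126 CPM on RD and 99.9, 102 and 82.2 on HFD. The males at 12 weeks had 128, 208 and 149 CPM on RD and 111, 83.3 and 114 on HFD. At 12 weeks every RD library was above every HFD library in each sex, yet neither comparison passed the test (adjusted p = 0.351 in females and 0.111 in males).

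Bckdha, the alpha subunit of the decarboxylase, had a mean change of log2 -0.51 ± 0.11, adjusted p = 0.0035. In females at 2 weeks it was at 198, 305 and 306 CPM on RD and 108, 195 and 197 on HFD. In males at 2 weeks it was at 198, 179 and 171 CPM on RD and 186, 129 and 156 on HFD. The females were separate by less than 1 CPM, and the males overlapped. In females at 12 weeks it was at 250.2, 187 and 163 CPM on RD and 144, 117 and 128 on HFD. For 12-week males the values were 142, 182 and 149 CPM on RD and 122, 99.9 and 116 on HFD. Neither sex overlapped at 12 weeks, and the single comparisons had adjusted p = 0.111, 0.722, 0.188 and 0.111 in that order. Bckdhb had a mean change of log2 -0.29 ± 0.13, adjusted p = 0.0935, Dbt of log2 -0.19 ± 0.14, adjusted p = 0.347 and Dld of log2 -0.39 ± 0.15, adjusted p = 0.0538. None of these 3 was called.

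Bckdk, the kinase that inhibits the complex, had the smallest p of the 10 in the mean, log2 -0.46 ± 0.09, adjusted p = 0.00115. In females at 2 weeks it was at 86.4, 106 and 109 CPM on RD and 46.1, 75.9 and 75.2 on HFD. In males at 2 weeks it was at 85.1, 67.5 and 76.0 CPM on RD and 71.2, 58.6 and 63.6 on HFD. Females at 2 weeks were separate by diet, while males overlapped. In females at 12 weeks it was at 87.1, 78.2 and 58.5 CPM on RD and 53.7, 54.5 and 48.3 on HFD. The males at 12 weeks had 61.8, 76.1 and 67.9 CPM on RD and 50.4, 48.3 and 49.2 on HFD. In males at 12 weeks the kinase was called (log2 -0.48 ± 0.17, adjusted p = 0.0476), with 3 HFD libraries close together and all below the RD libraries. That call was lost on leaving out any of 17 of the 24 libraries, in a fit of the 2 groups alone and with no filter, and over the alternatives its adjusted p ran from 0.0152 to 0.155.

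Ppm1k, the phosphatase, fell in the mean too, log2 -0.36 ± 0.12, adjusted p = 0.0328, a call lost on leaving out any of 14 of the 24 libraries or with no filter (adjusted p = 0.0532). In females at 2 weeks it was at 13.9, 28.9 and 24.8 CPM on RD and 14.5, 16.5 and 16.3 on HFD. In males at 2 weeks it was at 15.0, 19.5 and 18.3 CPM on RD and 25.6, 18.6 and 21.5 on HFD. Of the 40 fitted changes of the 10 genes in the 4 fat comparisons, the one in 2-week males was the only one above 0 (log2 0.31 ± 0.24). The 10 genes varied together over the fat libraries, so the 40 changes are not separate observations. In females at 12 weeks Ppm1k was at 21.3, 20.8 and 26.3 CPM on RD and 14.2, 14.6 and 14.3 on HFD. For 12-week males the values were 21.9, 19.2 and 11.9 CPM on RD and 13.5, 13.2 and 8.79 on HFD. In males at 12 weeks the change was log2 -0.58 ± 0.24, adjusted p = 0.0797, not called. There the libraries with the same number deviated together weakly (r of 0.108, 0.134 and 0.154), and no label gives the number a meaning. With the number as a block Ppm1k was called (adjusted p = 0.0323), which made 3 calls instead of 2.

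Ivd, the first dehydrogenase of the leucine branch, had a mean change of log2 -0.43 ± 0.14, adjusted p = 0.0256, a call lost on leaving out any of 5 libraries. In females at 12 weeks it was at 337, 265 and 255 CPM on RD and 226, 177 and 201 on HFD. The males at 12 weeks had 271, 312 and 184 CPM on RD and 161, 151 and 136 on HFD. In both the RD and HFD libraries were separate, and the males were called (log2 -0.78 ± 0.28, adjusted p = 0.0431), a change of 0.584-fold. That call was lost on leaving out any of 12 of the 24 libraries, in a fit of the 2 groups alone and with no filter, with an adjusted p from 0.0141 to 0.16 over the alternatives. At 2 weeks its libraries overlapped in both sexes. Mccc1 (log2 -0.41 ± 0.16, adjusted p = 0.0645) and Auh (log2 -0.26 ± 0.11, adjusted p = 0.0908) were not called in the mean.

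Some of these values rest on libraries that stand apart. HFD female 1 at 2 weeks, low in adipocyte markers, had the lowest fat CPM for 8 of the 10 genes. Without it the mean contrast called 7 of 10, with Bcat2 at -0.56 (adjusted p = 0.00298), Bckdha at -0.45 (0.00242) and Bckdk at -0.41 (0.000443). The share of all genes called in that fit is not given here. A further fit left out HFD female 1 and the 3 male libraries at 2 weeks that held epididymis transcripts. It left RD males at 2 weeks with 1 library, so only the sizes are given. There Bcat2 was at -0.51, Bckdha at -0.41 and Bckdk at -0.35, and the calls of Ivd and Ppm1k did not hold. In males at 12 weeks the call counts rest on RD libraries with epididymis transcripts and HFD libraries with more macrophage, fibroblast and progenitor transcripts, and the part of either in these changes was not tested. Of 15 mitochondrial housekeeping genes 12 were called lower in the mean contrast, with a median log2 change of -0.41 over the 15, and none was called higher. The mean of the 2 comparisons in females alone, with HFD female 1 included, was also added after the data had been seen. It called 2 of 10 members, both lower, and 0 of the 15 housekeeping genes. The share of all genes called in it is not given here, so these counts do not set the members apart. At an unadjusted p under 0.05 this contrast had 7 members, beside 22.3% of all genes. The medians were -0.46 over the members, -0.42 over the 15 and 0.02 over all genes.

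In liver the same mean contrast called none of the 10 genes by edgeR or DESeq2, beside 1.34% of the 15897 genes tested, with 2 of 10 at an unadjusted p under 0.05 (14.4% of all genes). The median log2 change was 0.10 over the members and 0.00 over all genes. The single diet comparisons also called none: the shares of all genes called were 0.252% in females and 0.34% in males at 2 weeks, and 0.00629% and 1.12% at 12 weeks, with 0, 0, 0 and 1 member at an unadjusted p under 0.05 (10, 10.6, 4.32 and 13.1% of all genes) and none by DESeq2. The member nearest to a change was Ppm1k, log2 0.29 ± 0.13, adjusted p = 0.309. In females at 2 weeks it was at 79.9, 88.6 and 89.9 CPM on RD and 104, 138 and 93.0 on HFD. In males at 2 weeks it was at 66.6, 64.4 and 60.0 CPM on RD and 91.9, 89.6 and 73.6 on HFD. HFD libraries were above RD libraries at 2 weeks in both sexes. In females at 12 weeks it was at 59.3, 86.7 and 74.1 CPM on RD and 105, 66.6 and 87.6 on HFD. For 12-week males the values were 69.3, 73.7 and 77.5 CPM on RD and 97.3, 106 and 37.1 on HFD. At 12 weeks they overlapped, and HFD male 4 held the lowest liver value of Ppm1k and of 3 other members.

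The diet difference itself was set against tissue in the fit of all 48 libraries, again a contrast added after the data had been seen. It called 7 of 10 members, each with a more positive HFD over RD change in liver than in fat, beside 18.1% of 18800 genes. The median difference was 0.44 (log2) over the members and 0.01 over all genes. Other mitochondrial genes did likewise: 8 of the 15 housekeeping genes were called higher and 0 lower, with a median of 0.41, and 5 of 12 genes of the sister lipoyl complexes and of lipoylation were called higher and 0 lower, with a median of 0.39. The largest differences were log2 0.76 ± 0.22, adjusted p = 0.0139 for Bcat2, log2 0.66 ± 0.18, adjusted p = 0.0123 for Ppm1k, log2 0.63 ± 0.14, adjusted p = 0.00227 for Bckdha and log2 0.57 ± 0.12, adjusted p = 0.00143 for Bckdk. These 4 were called with any 1 library left out and under each other alternative run on this contrast. The compared groups alone, and the fit without the 4 fat libraries with transcripts of other tissues, were not run on it. Bckdhb (log2 0.42 ± 0.14, adjusted p = 0.0376), Ivd (log2 0.44 ± 0.16, adjusted p = 0.0449) and Auh (log2 0.37 ± 0.13, adjusted p = 0.0483) were called in the fit as designed and lost on leaving out any of 19, 32 and 35 of the 48 libraries. Each of these calls was also lost with no filter. Dld (log2 0.43 ± 0.16, adjusted p = 0.0649), Mccc1 (log2 0.36 ± 0.18, adjusted p = 0.178) and Dbt (log2 0.11 ± 0.16, adjusted p = 0.731) were not called.

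**Figure D4:**
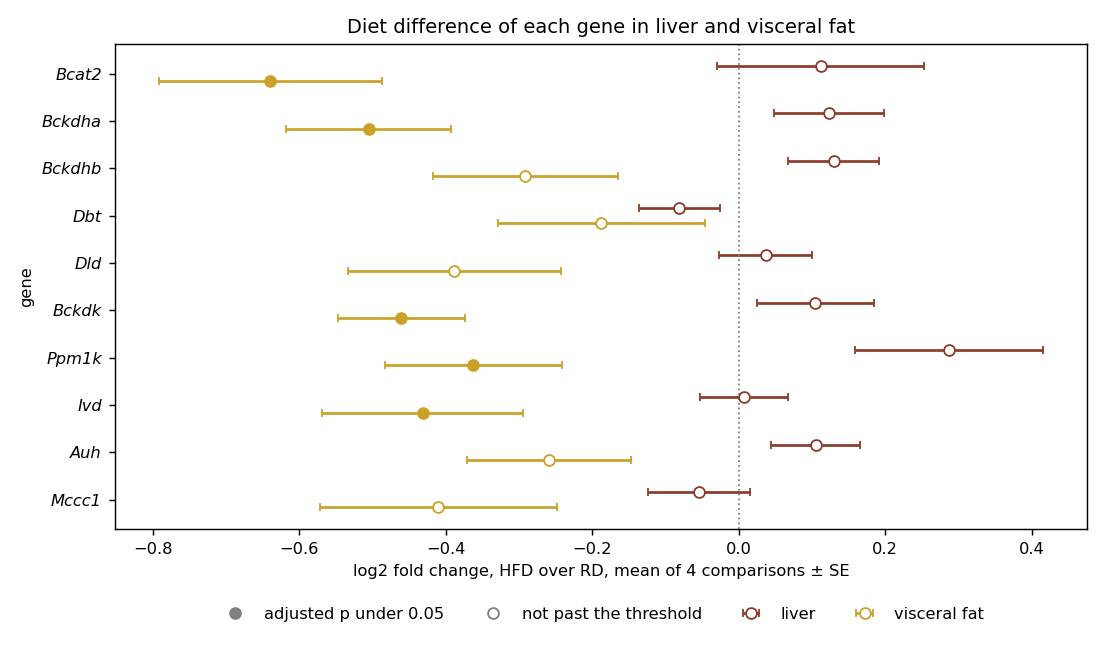
Log2 fold change of HFD over RD, as the mean of the 4 comparisons (2 sexes, 2 durations) ± SE, for each of the 10 genes in liver and in visceral fat, with filled points past an adjusted p of 0.05 in the tissue's own fit. Fat points all lie below 0 and 5 are filled, while no liver point is filled.

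By sex, none of the 10 genes was called in fat and 2 subunits of the complex were called in liver. Female over male comparisons in fat called none of the 10 on RD (4.28% of all genes called) or HFD (3.8%) at 2 weeks, or on RD (10.6%) or HFD (2.85%) at 12 weeks. DESeq2 also called none, and 2, 0, 0 and 1 passed an unadjusted p under 0.05 (19.6, 20.7, 32.5 and 13.9% of all genes). In liver at 2 weeks Bckdhb was the only member called, on RD (9.81% of all genes called) and on HFD (12.4%). On RD Bckdhb was at 56.3, 53.6 and 56.3 CPM in females and 39.0, 40.8 and 40.2 in males (log2 0.47 ± 0.12, adjusted p = 0.0197). On HFD Bckdhb was at 53.0, 49.8 and 67.2 CPM in females and 42.8, 40.8 and 43.9 in males (log2 0.41 ± 0.12, adjusted p = 0.0313). Every female library was above every male library on each diet. The RD call was lost without RD female 1 or 4 or RD male 6, 7 or 8. The HFD call was lost without HFD female 5 or HFD male 12, 13 or 14 or in a fit of the 2 groups alone. Both calls were also lost with no filter, with adjusted p up to 0.0777 and 0.286 over the alternatives. Hepatocyte marker sums were 111138 to 130460 CPM in RD females and 90133 to 109945 in RD males at 2 weeks, and 117578 to 135062 and 68700 to 84747 on HFD. Their part in the Bckdhb difference was not tested.

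At 12 weeks no member was called by sex on RD in liver (8.81% of all genes called, 0 members and 23.4% of all genes at an unadjusted p under 0.05, none by DESeq2). On HFD, where 17.3% of genes were called, Dbt was lower in females. On HFD Dbt was at 77.2, 77.4 and 72.2 CPM in females and 91.4, 98.9 and 99.1 in males (log2 -0.35 ± 0.11, adjusted p = 0.0338). The libraries did not overlap, and the call was lost on leaving out any of 9 of the 24 libraries, in a fit of the 2 groups alone and with no filter. Macrophage sums were 333 to 367 CPM in these females and 76.0 to 122 in these males, and sums of the 15 mitochondrial housekeeping genes 2914 to 3044 and 3341 to 3799, and their part was not tested. The sex by diet interaction called no member in liver (0.0% of genes at 2 weeks, 0.0% at 12 weeks) or in fat (0.0% and 1.25%), by edgeR or DESeq2, with 1 member, Ppm1k in fat at 2 weeks, at an unadjusted p under 0.05, beside 6.8% of all genes (log2 -0.83 ± 0.34, adjusted p = 0.698).

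**Figure D5:**
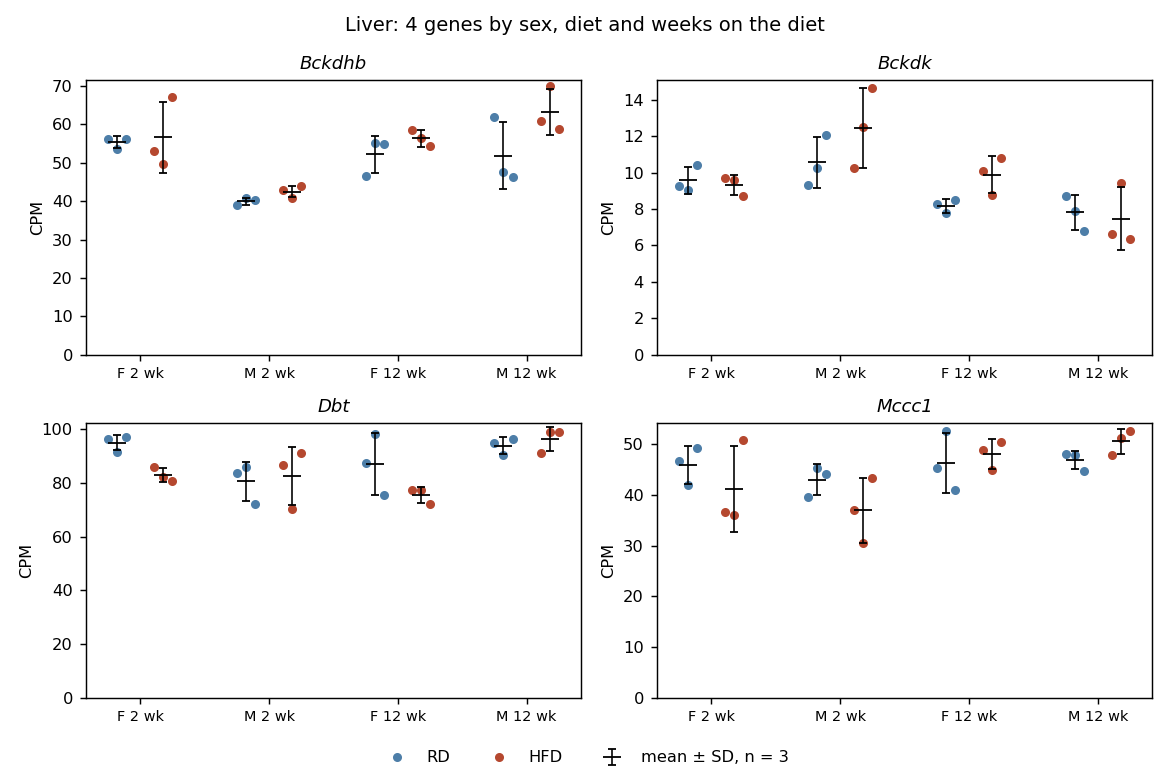
CPM in liver of 4 genes called in a sex or a time comparison, by sex (F, M) and weeks on the diet, with 1 point per library and black bars for mean ± SD (n = 3). Bckdhb is lower in males at 2 weeks than in the other groups, and Bckdk in HFD males is higher at 2 weeks than at 12 weeks.

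Between 2 and 12 weeks, HFD males in liver had 3 of 10 members called, beside 17.1% of genes. Bckdhb was at 42.8, 40.8 and 43.9 CPM at 2 weeks and 60.9, 70.1 and 58.8 at 12 weeks, log2 0.57 ± 0.12, adjusted p = 0.00312. Bckdk was at 10.3, 12.5 and 14.7 CPM and then 6.64, 9.45 and 6.34, log2 -0.74 ± 0.16, adjusted p = 0.00353. Subunit and kinase transcript thus differed in opposite directions, with no overlap of libraries for either. Mccc1 was at 37.0, 30.5 and 43.4 CPM and then 47.9, 51.2 and 52.7, log2 0.45 ± 0.14, adjusted p = 0.0296. The Mccc1 call was lost on leaving out any of 7 of 24 libraries and with no filter. In a fit of these 2 groups alone only the Bckdhb call held (Bckdk adjusted p = 0.091). Hepatocyte marker sums were 68700 to 84747 CPM at 2 weeks and 103596 to 109469 at 12 weeks, and macrophage sums 248 to 387 and 76.0 to 122, and their part was not tested.

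In RD males in liver no member was called, and the libraries of Bckdhb and Bckdk did not overlap between durations either, with fitted values of the same sign as on HFD. Bckdhb was at 39.0, 40.8 and 40.2 CPM at 2 weeks and 61.8, 47.7 and 46.2 at 12 weeks, log2 0.37 ± 0.12, adjusted p = 0.219. Bckdk was at 9.32, 10.3 and 12.1 CPM and then 8.74, 7.92 and 6.79, log2 -0.44 ± 0.16, adjusted p = 0.29. Libraries of the 2 durations were separate for 7 of 10 members in RD males and for 6 in HFD males. The share of all genes separate in this way was not computed, so these counts do not set the members apart. Whether the change with time differed between the diets or the sexes was not tested. The shares of all genes called in the other time comparisons in liver, none of which called a member, were 0.0% in RD females, 0.233% in RD males and 0.0189% in HFD females, with 0, 2 and 0 members at an unadjusted p under 0.05 (5.49, 11.5 and 9.4% of all genes) and none by DESeq2. In fat 1 member was called, Ppm1k in HFD males, beside 12.1% of genes. It was at 25.6, 18.6 and 21.5 CPM at 2 weeks and 13.5, 13.2 and 8.79 at 12 weeks, log2 -0.89 ± 0.24, adjusted p = 0.0247. The libraries did not overlap, and the call was lost without HFD male 4 at 12 weeks or HFD male 12 or 14 at 2 weeks (adjusted p up to 0.131). DESeq2 also called Ivd (adjusted p = 0.0169). RD females (0.0% of genes), RD males (0.0%) and HFD females (1.51%) had no member called by edgeR or DESeq2, with 1, 0 and 0 at an unadjusted p under 0.05 (6.27, 7.61 and 17.8% of all genes).

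Another 25 genes of the pathway were counted from lists of transporters and cytosolic transamination, late steps and the propionyl-CoA route. Between tissues 16 were called higher and 7 lower in liver, beside 80.4% of all genes called in either direction. Of the transport and transamination genes 6 of 7 were lower in liver, such as the exchanger subunits Slc7a8 (log2 -1.46 ± 0.09) and Slc3a2 (log2 -0.80 ± 0.06), while all 6 propionyl-CoA genes, such as Mut, methylmalonyl-CoA mutase (log2 1.25 ± 0.08), were higher. Oxct1, which activates ketone bodies for use, was the late-step exception at log2 -5.17 ± 0.10. Slc25a44, the mitochondrial carrier of branched-chain amino acids, was higher in liver at log2 1.31 ± 0.07.

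In fat the mean diet contrast called 4 of the 25 higher and 12 lower on HFD, beside 28.2% of all genes called and 13.4% called lower. Of 12 late-step genes 7 were lower and 1 higher, led by Hsd17b10 (log2 -0.71 ± 0.12), Echs1 (log2 -0.67 ± 0.12) and Acadsb (log2 -0.61 ± 0.13), enzymes of the isoleucine and fatty acid routes. Of the 6 propionyl-CoA genes 3 were lower, Mmaa, Pccb and Mcee, between -0.29 and -0.40. Plasma membrane carriers went the other way or split: Slc7a8 (log2 0.99 ± 0.13), Slc3a2 (log2 0.50 ± 0.09) and Slc43a2 (log2 0.63 ± 0.12) were higher, and Slc43a1 was lower (log2 -0.72 ± 0.18). In liver the same contrast called 1 of 25, Slc43a1, higher on HFD (log2 0.54 ± 0.13), beside 1.34% of all genes.

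Across the 24 fat libraries the levels of the 10 genes varied together. Pearson's r of each member's log2 CPM with the mean of the other 9 was 0.94 for Ivd, 0.92 for Bckdha and at least 0.62, for Ppm1k. In the 24 liver libraries it was 0.63 at most, for Auh, and -0.39 for Bckdk. The genes outside the lists most like the 10 in fat were Car5b (r = 0.95), Aco1, Trap1, Aldh2 and Vegfb, and in liver Hoga1 (r = 0.83), Gcdh, Selo, Fam219b and Gpt, by the same measure among 11889 and 10252 genes. These values describe libraries that share diet, sex, duration and tissue makeup, and HFD female 1 at 2 weeks is among the fat libraries.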

How the data were processed

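Messenger RNA from liver and visceral fat was sequenced as stranded, polyA-selected libraries from 200 ng of RNA, per the labels' protocols. The deposited table holds expected counts per gene symbol, estimates that need not be whole. Tools named in the submitters' processing notes are kallisto, edgeR and DESeq2, without versions or roles, on the genome build GRCm38. How transcripts were summed to gene symbols was not stated there. Here the expected counts were rounded, filtered with filterByExpr, scaled by TMM and tested with edgeR 4.0.16 (quasi-likelihood F test, robust, R 4.3.3), with 24 libraries in 8 groups per tissue, or 48 in 16 for contrasts of tissues. P-values were adjusted by Benjamini-Hochberg over all genes of a comparison and called under 0.05. Log2 CPM used a prior count of 2, fold changes used edgeR's default, and SEs came from the fold change and F. Alternatives were DESeq2 1.42.0, median-of-ratios size factors, no filter, no robust fitting, the compared groups alone, a replicate block, each library left out, and 4 fat libraries with transcripts of other tissues left out. The last of these and all mean diet contrasts, with the one in females alone, were chosen after seeing the data. The members and the lists of other genes were chosen with earlier results of these data known. Beyond the 10 members, the text names at most 4 genes per list, those with the smallest p among the called, and the 5 genes most like the members.

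Same-numbered HFD and RD males at 12 weeks deviated together weakly in fat (r = 0.108, 0.134 and 0.154), and the number is therefore given as a block there. In liver the same check gave -0.112, 0.0505 and 0.127. Females at 2 weeks also share numbers, and there it gave 0.119 and -0.0999 in fat and -1.52e-05 and -0.0488 in liver. No label says what the number stands for. Counts were also simulated for HFD over RD males at 12 weeks, with 200 genes changed. Over 15672 liver genes the test recovered 12, 48, 88 and 84% of 1.5-, 2-, 4- and 8-fold changes (7.2% of calls false). Over 18049 fat genes it recovered 2, 24, 50 and 76% (2.6% false). The real comparison called 178 of 15897 genes in liver but 5168 of 18325 in fat, so the simulated fat setting differs from the data. Recovery was not computed at the levels of the members, so these rates do not give the chance of calling a member.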

Additional observations from a re-analysis of the deposited data

Results flagged for a closer look

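The response to diet differed between the tissues for 7 of the 10 genes, by a test of the difference itself over 48 libraries (edgeR's quasi-likelihood test, Benjamini-Hochberg adjusted over 18800 genes), beside 18.1% of all genes. Of 15 mitochondrial housekeeping genes 8 were called in the same direction, with a median of 0.41 (log2) beside 0.44 over the members. The log2 HFD over RD change in liver minus that in fat was 0.76 for Bcat2 (adjusted p = 0.0139), 0.66 for Ppm1k (0.0123), 0.63 for Bckdha (0.00227) and 0.57 for Bckdk (0.00143). It was 0.44 for Ivd (0.0449), 0.42 for Bckdhb (0.0376) and 0.37 for Auh (0.0483), and these 3 calls were each lost on leaving out single libraries. Adipocyte, macrophage, fibroblast and epididymis transcripts also varied among the fat libraries, and their part in the difference was not tested.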

How the results depend on the processing

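For single genes in comparisons with a call in some setting, 1900 values were recomputed over 50 pairs of a gene and a comparison: 1673 kept their direction and side of the threshold, 186 lost a call, 41 gained one and 0 reversed. Over all members, 288 recomputed differences that were called in neither fit changed sign. Counts of members called moved as follows. With no filter on low counts the calls went from 7 to 4 for the mean diet difference between tissues, from 3 to 0 for sex in liver and from 2 to 0 for the 4 single diet comparisons in fat. With the compared groups alone they went from 3 to 1 for time in liver, from 2 to 1 for diet in fat, from 0 to 2 for sex in fat, from 3 to 2 for sex in liver (both HFD calls lost, RD at 2 weeks from 1 to 2) and from 1 to 3 for time in fat. Median-of-ratios size factors took the mean diet difference between tissues from 7 to 5 (Auh and Ivd lost). DESeq2 gave 4 for diet and 2 for time in fat. With 4 fat libraries left out for transcripts of other tissues, RD males at 2 weeks kept 1 library, so no counts are given for that fit. In it the mean diet contrast lost the calls of Ivd and Ppm1k. With each library left out in turn the calls ran from 0 to 4 for diet, 0 to 2 for time and 3 to 9 for the mean diet contrast in fat, from 1 to 3 for sex, 2 to 3 for time and 0 to 1 for the mean diet contrast in liver, and from 4 to 8 for the mean diet difference between tissues, and stayed at 10 for tissue. With the replicate block the 2 diet comparisons that share numbers gave 3 calls in fat and 0 in liver, the tissue contrast gave 10 and the mean diet difference between tissues 6, where Ivd was lost (adjusted p = 0.0522). The cause of these moves was not tested. Where a setting removed libraries, their values and the smaller number of libraries cannot be told apart. The lowest expected count of a member was 111, and depth was not varied.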

Other observations

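Some relatives of the branched-chain keto acid dehydrogenase were called lower in fat on HFD. Of 12 genes of the sister lipoyl complexes and of lipoylation, 7 were called lower and 0 higher in the mean of the 4 diet comparisons, beside 13.4% of all genes called lower. The median log2 change was -0.46 over the 12 and -0.01 over all genes. Pdhb and Pdha1, subunits of the pyruvate dehydrogenase decarboxylase, fell by 1.36 ± 0.23 and 1.03 ± 0.15 on the log2 scale, Pdhx by 0.62 ± 0.15 and Lias, which makes the lipoyl group, by 0.37 ± 0.09. In liver 1 of the 12 was called, lower, beside 1.34% of all genes called. The kinases of pyruvate dehydrogenase split in fat, with Pdk4 at 0.98 ± 0.22 (log2) and Pdk1 at -1.11 ± 0.14, and its phosphatase gene Pdp2 was at -0.36 ± 0.10. Of 7 regulators linked to these pathways, 2 were called in fat, beside 28.2% of all genes, and none in liver. The 2 were Mlxipl at -0.81 ± 0.23 and Esrra at -0.24 ± 0.08, both lower on HFD.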
